A study of Mus musculus with 12 samples.

Results

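Full and early hepatocyte-derived cells of the injured mouse liver were compared across all genes. Both populations were sorted as EGFP+ cells: the full group by the presence of Cd24 and Epcam on the surface, the early group by the absence of both. The libraries were chosen by their labels, and no expression value entered the choice. The comparison holds 6 of the 12 libraries of the series, 3 of each group. The other libraries are an EGFP+ Cd24+ Epcam- intermediate group and EGFP- Epcam+ biliary epithelial cells (BEC), also with 3 each. All groups share 1 history. The genotype label is WT, and all mice had been given AAV8-TBG-Cre, a virus whose hepatocyte promoter (TBG) drives Cre recombinase, so that EGFP marks cells that were hepatocytes at the time of injection. After 1 week the diet was changed to one with 0.1% DDC (3,5-diethoxycarbonyl-1,4-dihydrocollidine), which injures bile ducts, and cells were sorted after 8 weeks on it. The early group is therefore a group of DDC-exposed hepatocytes and not of untreated ones. The labels do not name the EGFP reporter allele, the age or sex of the mice, or whether a replicate is 1 mouse or a pool, so the tests measure the spread between these libraries.

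Hepatocytes secrete most plasma proteins and carry out drug, bile acid, ammonia and sugar metabolism. Biliary epithelial cells line the ducts that drain bile, rest on a basement membrane, carry a primary cilium and modify bile through chloride and bicarbonate transport. In DDC injury some hepatocytes take on biliary features, a conversion in which Notch, TGF-beta and YAP signalling and the transcription factor Sox9 are known to take part. The study asks how transcription differs between stages of this conversion, and the comparison described here spans its first and last stage.

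Cd24a and Epcam encode the proteins used for the sort, and their values check the labels only. Epcam was at 0.633, 0.818 and 0.324 CPM (counts scaled to 1000000 per library, with library sizes adjusted by the TMM method) in the early libraries and at 283, 273 and 207 in the full libraries, and Cd24a at 2.77, 5.55 and 1.29 against 1178, 1112 and 931. The RNA thus followed the gates. Total counts lay between 16783030 and 19731887 per library. Early libraries varied more than full ones, with a common coefficient of biological variation of 18.6% against 11.98%. Mitochondrial transcripts held 5.45% to 11.4% of the counts in early libraries, replicate 2 being the highest, and 2.20% to 2.48% in full libraries. Since these are bulk samples, fewer cells of a type and less RNA per cell cannot be told apart.

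Of 16210 genes tested, 71.2% differed between the groups at a Benjamini-Hochberg adjusted p under 0.05 (edgeR's quasi-likelihood test), and these are the genes called below. A share of 39.1% was higher in full (6340 genes) and 32.1% lower (5201 genes). Full and early libraries did not overlap for 74.4% of the genes tested. Most genes were thus called, and each count of called members below is read beside these shares. Changes of at least 4-fold were fitted for 2694 genes called higher and 1479 called lower, and changes of at least 64-fold for 730 and 189. Of the genes called higher, 530 had no count in any early library, where the fitted size depends on the model's prior count. With these at their lower bound, 2401 genes were at least 4-fold higher and 328 at least 64-fold higher. Folds below are given as lower bounds where a group had no count, against a floor of 3 counts in 1 library, and as ratios of summed counts per scaled library size, with a 95% interval for counting error, where each library of a group had 3 counts or fewer.

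The scale between the groups matters for genes with small changes. TMM factors were 0.652 to 0.672 in the early and 1.19 to 1.22 in the full libraries. When library totals were used alone, without TMM factors, the median over all genes went from 0.14 to 1.005 on the log2 scale, and 10766 genes were called higher and 2395 lower, so that 81.8% of the calls were higher against 54.9% on the TMM scale. Values below are on the TMM scale. A gene that was lower by less than about 0.87 on the log2 scale changes direction with total counts, and this is stated where a change is given for such a gene.

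**Figure D1:**
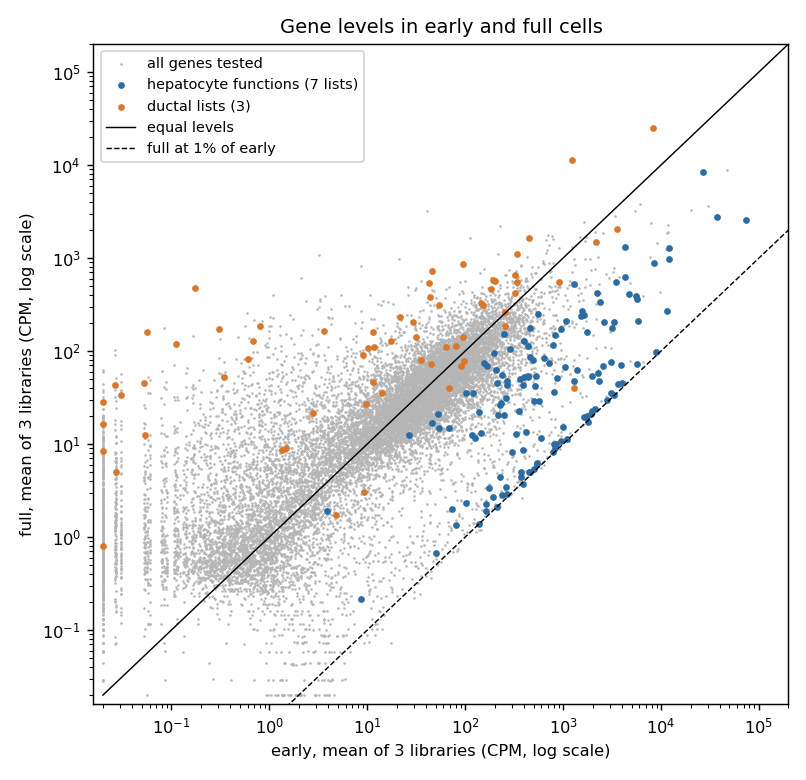
Mean level of each of the 16210 genes tested in the 3 early libraries (horizontal axis) and the 3 full libraries (vertical axis), in CPM on log axes, with genes under 0.02 CPM drawn at 0.02. Grey points are all genes, blue points are genes of the 7 lists of hepatocyte functions and orange points genes of the 3 ductal lists (transcription factors, keratins and adhesion, transport and secretion). The solid line marks equal levels and the dashed line a full level of 1% of the early level, along which the lowest of the blue points lie.

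The 6 full and early libraries differed in how the counts were spread over genes. At least 1 count per 1000000 of the library total was reached by 11811, 12051 and 11994 genes in the early libraries and by 13918, 13942 and 13873 genes in the full libraries. Each full library thus detected more genes than any early one (exact permutation test, 2-sided, p 0.1, the smallest that 3 against 3 allows). In early libraries 207 to 285 genes held 50% of the counts, and in full libraries 1076 to 1114 genes (exact permutation test, 2-sided, p 0.1). Alb was the most abundant gene in each early library, with 4.70% to 4.95% of the counts, and Clu in each full library, with 2.73% to 3.43%. Of the 100 most abundant genes in the early group, 94 were called lower in full, 1 higher and 5 were not called. Among the 100 most abundant in full, 48 were called higher and 38 lower. The 2 groups shared 40 genes of these 100.

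The 5 genes with the largest gain in CPM were Clu, Spp1, Rgs5, Agrn and Flna. Clu, which encodes the secreted chaperone clusterin, was at 9321, 7991 and 7445 CPM in the early libraries and at 28799, 22412 and 24016 in the full libraries (edgeR log2 fold change 1.60, SE 0.17, adjusted p 9.87e-07). Spp1, which encodes osteopontin, a secreted protein of biliary cells, rose from 1237 ± 504 to 11316 ± 1789.96 CPM (SD, n = 3; edgeR log2 fold change 3.19, SE 0.26, adjusted p 9.38e-08). Its highest early library (replicate 3, 1811 CPM) lay well under its lowest full library (replicate 2, 9929 CPM). Rgs5, a regulator of G protein signalling that also marks pericytes, had 33.5, 40.1 and 49.4 CPM in early and 3398, 2944 and 3215 in full libraries (edgeR log2 fold change 6.28, SE 0.22, adjusted p 3.69e-11). The largest losses were those of Alb, mt-Co1, Trf, Apoe and C3.

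Genes for plasma proteins, the secreted products of hepatocytes, were all lower in full: 24 of 24, beside 32.1% of all genes tested, with a median log2 fold change of -3.97 against 0.14 over all genes tested. Together they held 15.7% ± 1.07 of the counts in the early libraries and 2.54% ± 0.156 in the full libraries (SD, n = 3; exact permutation test, 2-sided, p 0.1). Alb, the gene for albumin, was at 72049, 74698 and 73775 CPM in the early and 2237, 2419 and 3089 CPM in the full libraries (edgeR log2 fold change -4.83, SE 0.20, adjusted p 1.24e-10). Trf, which encodes transferrin, went from 36888 ± 5604 to 2729.96 ± 695 CPM and Apoe, which encodes apolipoprotein E, from 30457 ± 5716 to 3623 ± 469. The steepest losses on this list were those of Serpinc1 (antithrombin), Apoa2 and Apoa1 (the main proteins of high-density lipoprotein). Serpinc1 fell 99.1-fold, from 3333 ± 84.4 to 33.6 ± 8.25 CPM (SD, n = 3; edgeR log2 fold change -6.63, SE 0.29, adjusted p 2.04e-10). No early library overlapped a full one for any of these genes. Complement C3 fell least of the list, from 29910.4, 24291 and 25902 CPM to 8392, 8448 and 8181 CPM, a 3.20-fold change.

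Sequences are shown for a few genes only. The promoter of Alb is shown because its gene lost more CPM than any other. That of Aspdh, a gene for an enzyme of the aspartate dehydrogenase family, comes from the 12 named genes with the largest fall. Both promoters were picked after the values and the matches were seen. The stretches come from the RefSeq promoter table (build GRCm38.p6, while the submitters' processing notes name GRCm39) and hold the 120 bases before the annotated start, 5′ to 3′ on the gene's strand. Capitals mark a match to GTTAATNA, letters of the HNF1 motif, in Alb (plus strand, chr5:90460750-90460869) and to CAAAGTCCA, letters of the HNF4 motif, in Aspdh (plus strand, chr7:44465315-44465434).
Alb: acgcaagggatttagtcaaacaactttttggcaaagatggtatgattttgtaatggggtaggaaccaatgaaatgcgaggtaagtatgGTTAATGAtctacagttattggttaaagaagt
Aspdh: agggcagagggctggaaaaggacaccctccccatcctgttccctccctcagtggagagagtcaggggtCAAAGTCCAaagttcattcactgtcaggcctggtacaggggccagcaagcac
The match begins 32 bases before the start in Alb and 52 bases before it in Aspdh. Searched on both strands, 2.54% of all 32851 promoters in the table held the HNF1 letters and 0.475% the HNF4 letters. Of the 12 named genes with the largest fall, only Aspdh held the HNF4 letters in a promoter searched, so it does not stand for the others. A match is a description of the sequence and not evidence of binding. Shares of motifs were not compared between sets of genes, since 69.0% of the genes called at least 4-fold higher and 67.7% of those at least 4-fold lower had a promoter in the table, under the 80% set as a minimum.

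Bile acid genes were lower in 17 of 17 cases (median -5.19). Cyp7a1, the rate-limiting enzyme of bile acid synthesis, had 199, 289 and 321 CPM in early and 1.32, 2.76 and 4.72 CPM in full libraries (edgeR log2 fold change -6.52, SE 0.47, adjusted p 2.24e-08). Slc27a5, which activates bile acids for conjugation, went from 456 ± 58.7 to 4.99 ± 0.639 CPM. Abcb11, the bile salt export pump of the canalicular membrane, went from 527, 546 and 535 to 3.32, 7.22 and 8.18 CPM (edgeR log2 fold change -6.43, SE 0.38, adjusted p 3.25e-09), and Slc10a1, the main uptake carrier, from 260.2 ± 41.8 to 3.48 ± 0.720. Abcc2, the canalicular exporter of conjugated bilirubin, kept a larger share of its early level, with 252, 200.1 and 258 CPM in full against 1623, 1429 and 1518 in early. Early and full libraries were separated for each of these genes.

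Drug metabolism genes were all lower (20 of 20, median -5.94), and the list held 1.60% ± 0.0597 of the counts in the early libraries and 0.130% ± 0.0140 in the full libraries (exact permutation test, 2-sided, p 0.1). Cyp2e1, the cytochrome that oxidises ethanol and acetaminophen, was at 1297, 1029.8 and 949.9 CPM in early and at 10.3, 9.10 and 14.4 CPM in full libraries (edgeR log2 fold change -6.60, SE 0.24, adjusted p 4.56e-11). Cyp2b10, a target of the nuclear receptor CAR, fell from 139 ± 36.5 to 1.39 ± 0.978 CPM, and the carboxylesterase gene Ces3a from 824 ± 251 to 9.15 ± 6.42. Full replicate 3 was the highest full library for both, and without it the log2 fold change went from -6.65 to -7.38 for Cyp2b10 and from -6.49 to -7.23 for Ces3a. Cytochrome and esterase genes have close copies whose reads the counting could divide, so that single values in these families are uncertain.

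Genes of the urea cycle and amino acid breakdown were lower in 24 of 24 cases (median -5.90). Hal, which opens histidine breakdown, had 169, 238 and 226 CPM in early and 1.83, 2.01 and 2.45 CPM in full libraries (edgeR log2 fold change -6.65, SE 0.30, adjusted p 3.15e-10). Hpd, of tyrosine breakdown, was at 705, 874 and 794 against 6.68, 6.78 and 10.9 CPM. All full libraries lay far under all early ones for both genes.

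Sugar and fat metabolism followed the same direction. All 14 genes of gluconeogenesis and glycogen were lower (median -4.30). Pck1, the gatekeeper of gluconeogenesis, went from 2064, 1451 and 1749 CPM to 17.95, 15.6 and 26.9 CPM (edgeR log2 fold change -6.44, SE 0.32, adjusted p 6.37e-10), and Gys2, the liver glycogen synthase, from 193 ± 18.3 to 2.72 ± 1.43 CPM. Fatty acid oxidation and ketone synthesis (18 of 18 lower) had a smaller median change of -2.48. Its largest fall was that of Fabp1, the liver fatty acid carrier, from 451 ± 156 to 4.97 ± 3.28 CPM (log2 fold change -6.50, and -7.19 without full replicate 3). Acadl, a dehydrogenase of long-chain fatty acids, was lower by less (277, 227 and 251 against 163, 147 and 141 CPM, log2 fold change -0.74, but 0.13 with total counts). All 15 peroxisomal genes tested were lower (median -2.11), led by Hao1 and Uox, the oxidases of glycolate and urate. Uox had 1764, 1770.3 and 2428 CPM in early and 16.9, 17.6 and 33.7 CPM in full libraries (edgeR log2 fold change -6.45, SE 0.44, adjusted p 1.45e-08).

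Across all genes, the 12 named genes with the largest fall were Cyp2a22, Serpina3m, Hsd3b2, Cyp2d40, Nxpe2, Mup3, Urad, Fam47e, BC024386, Cyp2d13, Hsd17b6 and Aspdh. Serpina3m, one of a cluster of serine protease inhibitor genes, was at 369, 448 and 313 CPM in early and 2.34, 2.32 and 3.15 CPM in full libraries (edgeR log2 fold change -7.17, SE 0.20, adjusted p 1.20e-11). Hsd17b6, which acts on steroids and retinoids, was at 45.1, 105 and 98.4 against 0.298, 0.669 and 1.18 CPM, and Urad, an enzyme of urate breakdown, at 44.3, 36.6 and 54.9 against 0.170, 0.446 and 0.481 CPM. Aspdh fell from 85.4 ± 6.61 to 0.743 ± 0.319 CPM (SD, n = 3; edgeR log2 fold change -6.83, SE 0.44, adjusted p 7.11e-09). Cyp2a22, Cyp2d40, Cyp2d13, Serpina3m and Mup3 belong to families of close copies and their single values are uncertain.

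In the full libraries the lowest hepatocyte genes lay near 1% of their early level. Among 122 genes of the 7 lists of hepatocyte functions with an early mean of at least 100 CPM, the full level was between 0.949% of the early level and 59.9% (Acadl), with a median of 6.33%. For 40 of them it lay under 2%, and for 0 of them under 0.9%. The median of these 40 genes was 0.939% of the early level in full replicate 1, 0.980% in replicate 2 and 1.54% in replicate 3, and replicate 3 was the highest full library for 36 of the 40. In BEC libraries, cells without the hepatocyte label, the median was 1.18%. Over all 2411 genes with an early mean of at least 100 CPM, 117 had a full level between 0.9% and 2% of the early level, 4 were under 0.9% and 0 under 0.5%, the lowest being Serpina3m at 0.691%. In the other direction, of 1837 genes with a full mean of at least 100 CPM, 21 had an early level under 0.5% of the full level. Falls near 100-fold, such as that of Serpinc1, lie at this level, so that the sizes and the order of the steepest falls are to be read beside it. What sets the level near 1% was not tested.

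**Figure D2:**
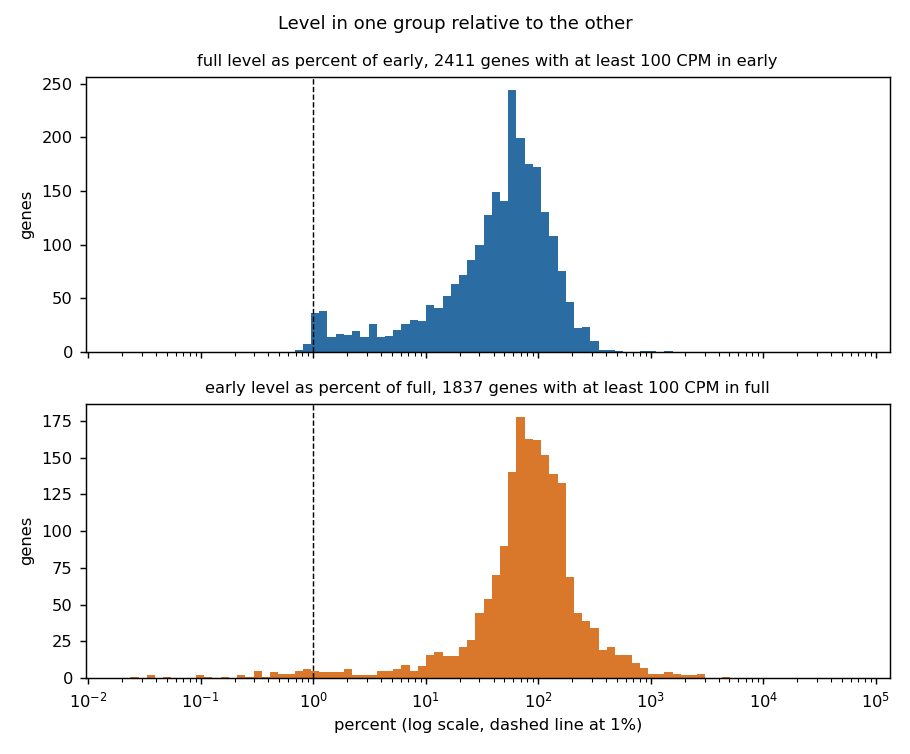
Number of genes by the level in one group as a percent of the level in the other (horizontal log axis, percent). The upper panel counts the 2411 genes with at least 100 CPM in early by their full level relative to early, and the lower panel the 1837 genes with at least 100 CPM in full by their early level relative to full. The upper distribution has a small separate peak near 1% and ends there (0 genes under 0.5%), while the lower one reaches further down (21 genes under 0.5%).

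Hepatocyte transcription factors changed less uniformly than the enzymes. Of 18 factors, 12 were lower and 3 higher (median -2.15), or 10 and 6 with total counts. Nr1i3, which encodes the drug sensor CAR, was at 55.5, 33.3 and 31.3 CPM in early and at 0.383, 0.312 and 0.437 in full libraries (edgeR log2 fold change -6.70, SE 0.39, adjusted p 2.50e-09). Ppara, the fatty acid receptor that drives oxidation genes, fell from 134 ± 23.2 to 6.71 ± 0.842 CPM, and Rxra, the shared partner of these receptors, from 746 ± 67.02 to 85.2 ± 3.68 CPM. Hnf4a, the hepatocyte factor used here as a marker, remained at 200.01, 179 and 183 CPM in full libraries, a 6.10-fold lower level than in early (1175, 1149.9 and 1099.5 CPM; edgeR log2 fold change -2.61, SE 0.13, adjusted p 5.15e-10). Prox1, a factor of the early liver bud, was not called and overlapped between the groups, with 249.7, 337 and 362 CPM in early and 327, 312 and 354 in full libraries. Nr5a2 (LRH-1), a regulator of bile acid synthesis, was not called either, with 127, 134 and 123 against 142, 143 and 154 CPM, although its groups did not overlap, and it was called higher with the filter at a mean of 50 counts (edgeR adjusted p 0.0435). With total counts both were called higher (log2 fold change 0.93 for Prox1 and 1.06 for Nr5a2). Onecut1 (HNF6), a factor of both hepatoblasts and ducts, was higher in full, at 94.4, 115 and 125 CPM against 11.5, 26.6 and 35.5 (edgeR log2 fold change 2.19, SE 0.28, adjusted p 9.19e-06).

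Ductal transcription factors were higher in 14 of 16 cases and lower in 2 (median 2.67). Grhl2, a regulator of epithelial junctions in ducts, had no count in any early library and 16.3, 20.6 and 12.1 CPM in full libraries, at least 59.8-fold higher. Klf5, a factor of ductal and intestinal epithelia, had 2 counts over all early libraries and 46.5, 49.9 and 39.5 CPM in full (a ratio of 815 with a counting interval from 225 to 6732). Ehf, an epithelial ETS factor, was at 2.14, 0.0909 and 0.162 CPM in early, where replicate 1 was the highest, and at 193, 188 and 173 CPM in full libraries (edgeR log2 fold change 7.79, SE 0.55, adjusted p 2.03e-08; log2 fold change 10.42 without early replicate 1, which depends on the prior count since the other 2 had 3 counts or fewer). Sox9, a marker of ducts and of hepatocytes near them, was present in early at 31.6, 51.7 and 46.8 CPM and rose to 367, 403 and 364 CPM (edgeR log2 fold change 3.13, SE 0.18, adjusted p 2.19e-09). Grhl1, a paralog of Grhl2, was lower in full (9.36 ± 1.10 to 3.08 ± 0.128 CPM; edgeR log2 fold change -1.60, SE 0.25, adjusted p 5.50e-05). The full and early libraries did not overlap for any of these 5 factors. For Id1, an inhibitor of helix-loop-helix factors and a BMP target, the ranges overlapped; it was called lower at -0.76 on the log2 scale but was at 0.099 with total counts.

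Keratin and adhesion genes of ducts were higher in 21 of 26 cases and lower in 4 (median 2.74), or 25 and 0 with total counts. Krt19, the classical duct keratin, had 4 counts over the 3 early libraries and 113, 139 and 102 CPM in the full libraries (a ratio of 1059.7 with a counting interval from 414 to 3890.2). Krt7, its partner in ducts, was at 0.395, 0.273 and 0.243 CPM against 184, 206 and 127 CPM (edgeR log2 fold change 9.11, SE 0.50, adjusted p 1.67e-09). Cdh6, a cadherin of embryonic and ductal epithelia, had 0.0791, 0.364 and 0.0809 CPM in early and 442, 486 and 490.3 CPM in full libraries (edgeR log2 fold change 11.41, SE 0.38, adjusted p 2.49e-11). Without early replicate 2, which held most of its few early counts, this log2 fold change was 12.40, which depends on the prior count since the other 2 had 1 count each. These 3 genes were close to absent in each early library. Cdh1 (E-cadherin), present in both cell types, rose 3.30-fold (335 ± 30.2 to 1106 ± 31.97 CPM), and Cldn4, a tight junction claudin, rose 10.8-fold (21.5 ± 10.7 to 231 ± 39.3 CPM). Krt8 and Krt18, the keratin pair that hepatocytes also make, were lower in full (-0.82 and -0.55 on the log2 scale) but not with total counts, where they were at 0.052 (not called) and 0.31 (called higher). Cldn3 was not called (288, 227 and 258 CPM in early, 275, 263 and 253 in full; edgeR log2 fold change 0.033, SE 0.11, adjusted p 0.792), but was higher with total counts (log2 fold change 0.90).

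Transport and secretion genes of ducts were higher in 19 of 23 cases, lower in 2, and not called in 2. Their median log2 fold change was 2.16, or 1.60 with genes that had no early count at their lower bound. The list held 0.840% ± 0.0456 of the counts in the early libraries and 4.75% ± 0.591 in the full libraries, mostly through Clu and Spp1 (exact permutation test, 2-sided, p 0.1). Cftr, the chloride channel that drives ductal secretion, had 2 counts over all early libraries and 130.1, 198 and 151 CPM in full libraries (a ratio of 2868 with a counting interval from 794 to 23686). Sctr, the secretin receptor that acts upstream of it, had 1 count in early and 56.3, 38.4 and 34.9 CPM in full (a ratio of 1559.8 with a counting interval from 279.7 to 61628). Muc1, a membrane mucin of the duct lumen, had no early count and 39.4, 24.9 and 20.9 CPM in full, at least 104-fold higher. These 3 genes of ductal secretion were thus seen in full libraries and hardly or not in early ones. Pigr, which carries immunoglobulin A into bile, was 32.3-fold lower in full (1150.3, 1435 and 1287 CPM against 34.5, 33.4 and 51.9; edgeR log2 fold change -5.01, SE 0.21, adjusted p 1.63e-10). Aqp1, a ductal water channel, was also lower, at a low level in both groups (4.79 ± 1.55 against 1.73 ± 0.532 CPM; edgeR log2 fold change -1.46, SE 0.41, adjusted p 0.0053), and was not called with total counts (edgeR adjusted p 0.184). Lcn2 and Slc10a2, the ileal-type bile acid carrier, were not called, and both had overlapping ranges (1323, 721 and 669.7 against 701, 538 and 413 CPM for Lcn2, 63.4, 124 and 103 against 67.01, 81.97 and 87.4 for Slc10a2). Lcn2 was lower without early replicate 3 (log2 fold change -0.89, edgeR adjusted p 0.0474) and Slc10a2 without early replicate 1 (-0.52, edgeR adjusted p 0.0042), while both signs turned with total counts (0.15 for Lcn2, not called, and 0.57 for Slc10a2, called higher). Lcn2 was also called lower without the filter on low counts (edgeR adjusted p 7.45e-04) and with the 6 libraries alone (0.0356).

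The 12 named genes with the largest fitted rise were Mmp7, Gabrp, Dpysl4, Rassf9, Ncmap, Adgrb2, Asz1, Muc1, Map2, Galnt3, Bdkrb2 and Slc35f1. Each had 0 counts in all 3 early libraries, so that their rank depends on the model's prior count, and their bounds lie under ratios measured for genes with a few early counts, such as Cftr. Mmp7, a matrix protease of injured ducts, reached 91.3, 53.4 and 41.9 CPM in full, at least 228-fold higher, with replicate 1 above the other 2. Gabrp, a subunit of a chloride-conducting GABA receptor, reached 77.1, 50.3 and 51.04 CPM, at least 218-fold higher. Dpysl4 (52.8, 43.7 and 34.7 CPM, at least 160.3-fold) and Map2 (25.4, 32.1 and 25.3 CPM, at least 101-fold) are best known from neurons, Asz1 (19.6, 39.02 and 30.05 CPM, at least 108-fold) from germ cells, and Galnt3 (27.4, 26.4 and 17.5 CPM, at least 87.1-fold) starts the O-glycosylation of mucins. In all, 37 genes with a full mean of at least 10 CPM had no count in any early library. Conversely, 0 genes with an early mean of at least 10 CPM were without a count in all full libraries. The detection limits differ: 3 counts in 1 library equal up to 0.273 CPM in early and 0.134 CPM in full, so a count of 0 is easier to obtain in early.

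**Figure D3:**
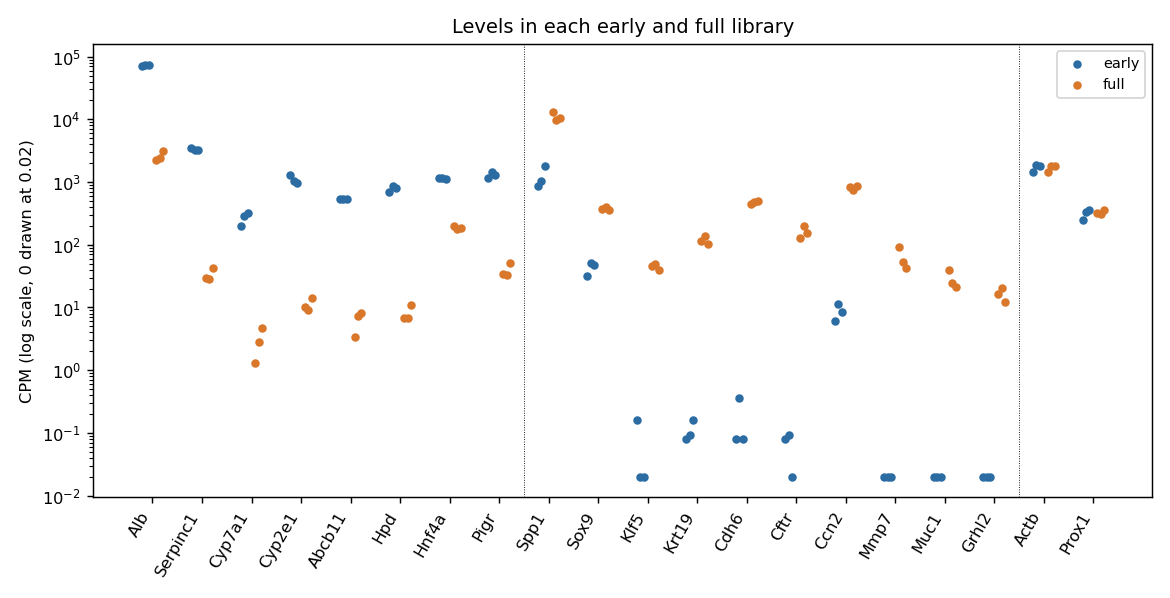
Level of 20 named genes in each of the 3 early (blue) and 3 full (orange) libraries, in CPM on a log axis, with 0 drawn at 0.02. Dotted lines separate genes lower in full (left), higher in full (middle) and not called (right). Alb was at 2237 CPM or more in each full library, and Mmp7, Muc1 and Grhl2 had no count in the early libraries.

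Basement membrane genes were higher in 15 of 17 cases (median 2.35). Hspg2, which encodes perlecan, had 6.56, 10.6 and 14.9 CPM in early and 304, 497 and 413 CPM in full libraries (edgeR log2 fold change 5.24, SE 0.27, adjusted p 1.001e-09). Agrn, the heparan sulfate proteoglycan agrin, rose from 229 ± 22.9 to 2207 ± 59.3 CPM (edgeR log2 fold change 3.27, SE 0.11, adjusted p 2.58e-11). Frem2, an extracellular protein of the epithelial base, had no early count and 4.68, 8.61 and 6.21 CPM in full libraries, at least 23.8-fold higher. The groups did not overlap for any of these genes. Nid1, the linker between laminin and collagen IV, was the exception at -0.75 on the log2 scale, with 0.12 under total counts.

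Genes of the primary cilium, a sensory antenna of duct cells, were higher in 23 of 27 cases and lower in 2, or 1 without early replicate 3 (median 1.74). Pkhd1, which encodes fibrocystin, the protein lost in recessive polycystic kidney and liver disease, was at 27.7, 52.02 and 58.8 CPM in early and 361, 464 and 520.5 CPM in full libraries (edgeR log2 fold change 3.28, SE 0.26, adjusted p 8.02e-08). Ift57, a subunit of the intraflagellar transport train, rose from 6.01 ± 0.650 to 46.3 ± 2.01 CPM (edgeR log2 fold change 2.94, SE 0.13, adjusted p 2.82e-10). Kif17, a ciliary kinesin, had 1 count over the early libraries and 1.59 ± 0.560 CPM in full (a ratio of 57.03 with a counting interval from 10.02 to 2273). Ift20, a transport subunit that also works at the Golgi, was lower (42.8, 37.4 and 46.6 against 21.1, 16.5 and 18.9 CPM; edgeR log2 fold change -1.17, SE 0.13, adjusted p 2.94e-06), but was not called with total counts (edgeR adjusted p 0.0504).

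Cytoskeletal genes were higher in 18 of 25 cases and lower in 5 (median 1.39), or 21 and 1 with total counts. Flna, the actin crosslinker filamin A, was at 101, 117 and 114 CPM in early and 1641, 1637 and 1606 CPM in full libraries (edgeR log2 fold change 3.88, SE 0.11, adjusted p 1.20e-11). Tmsb4x, the actin-sequestering thymosin beta 4, rose 22.7-fold (13.9 ± 6.15 to 315 ± 19.3 CPM). Tuba1a rose (3.73 ± 1.37 to 80.7 ± 5.64 CPM; edgeR log2 fold change 4.43, SE 0.22, adjusted p 6.96e-10) while another alpha-tubulin, Tuba4a, fell (148 ± 19.3 to 42.7 ± 1.63 CPM; edgeR log2 fold change -1.79, SE 0.13, adjusted p 3.75e-08). Actb was not called (1455, 1850.3 and 1795 against 1431, 1777 and 1801 CPM; higher with total counts, log2 fold change 0.84). Annexins and S100 proteins, which bind calcium and membranes, split into 10 higher and 6 lower of 16 on the TMM scale, and 12 higher and 2 lower with total counts. Anxa3 rose from 1.74 ± 0.355 to 219.9 ± 10.04 CPM (edgeR log2 fold change 6.97, SE 0.32, adjusted p 3.50e-10) and S100a1 fell from 79.8 ± 6.22 to 30.6 ± 2.50 CPM (edgeR log2 fold change -1.38, SE 0.095, adjusted p 1.44e-08).

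**Figure D4:**
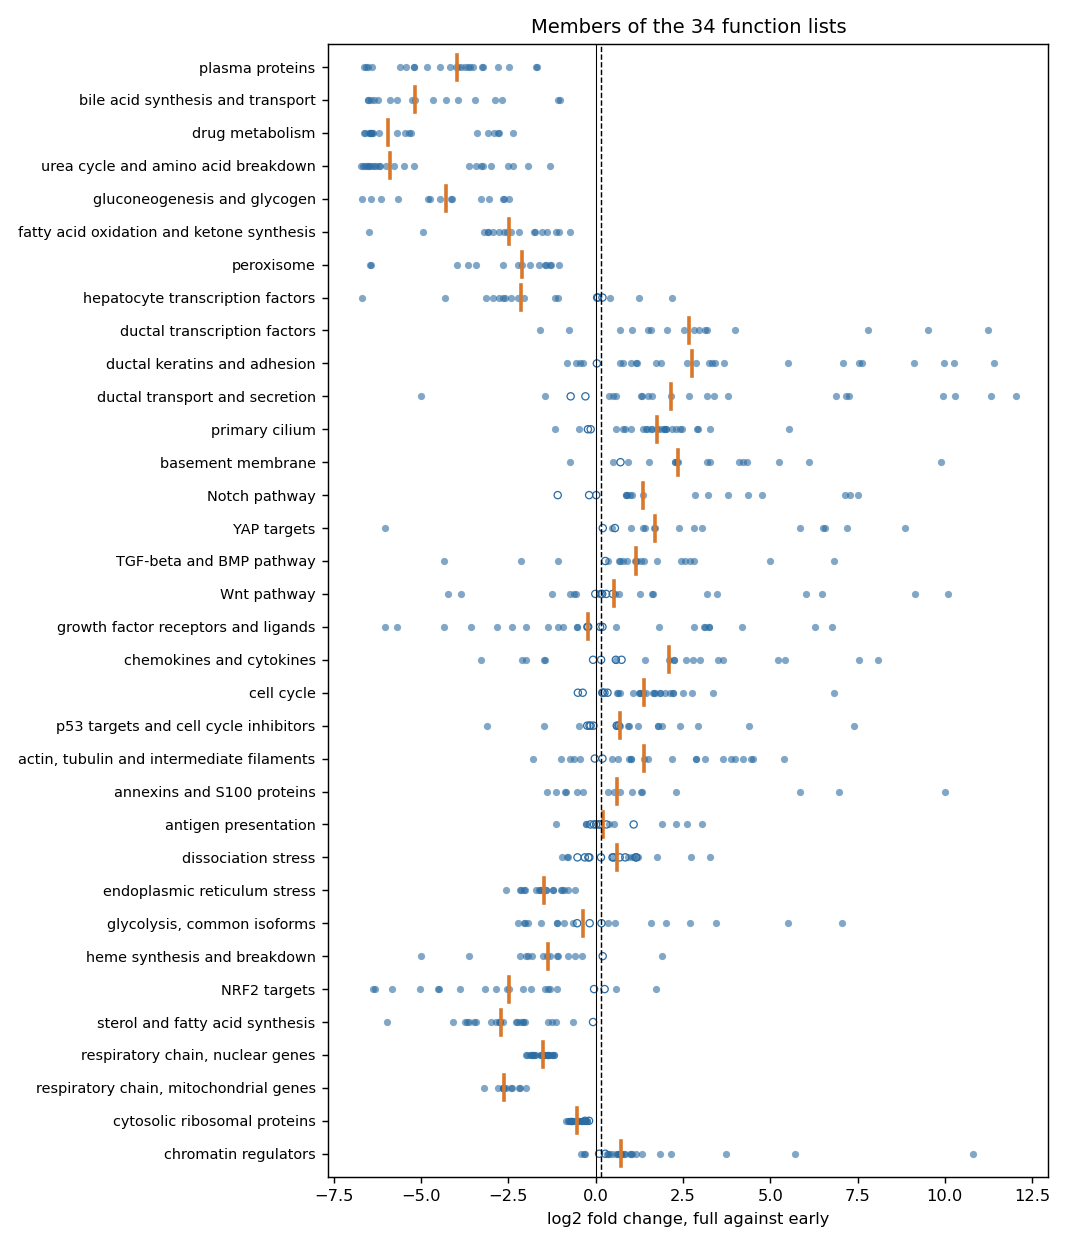
Log2 fold change, full against early, of every tested member of the 34 function lists (1 row a list). Filled points were called and open points were not; the vertical bar in each row is the median of the list, and the dashed line the median of all genes tested (0.14). Values of genes without an early count depend on the model's prior count. Lists of hepatocyte metabolism lie wholly to the left of 0 and the ductal lists mostly to the right.

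Notch pathway genes were higher in 14 of 17 cases and lower in 0, or 2 without early replicate 1 (median 1.35). Among ligands, Jag2 had 0.158, 0.273 and 0.324 CPM in early and 40.2, 39.3 and 28.3 CPM in full libraries (edgeR log2 fold change 7.13, SE 0.55, adjusted p 5.38e-08), and Jag1, the ligand whose loss causes a shortage of bile ducts, rose from 16.3 ± 3.77 to 333 ± 46.3 CPM (edgeR log2 fold change 4.35, SE 0.18, adjusted p 1.15e-10). Dll1, another ligand, was not called (12.3 ± 3.60 against 10.8 ± 0.625 CPM), but was lower without early replicate 1 (log2 fold change -0.41, edgeR adjusted p 0.0227), and higher with total counts (0.68). Lfng, a glycosyltransferase that tunes the receptors, had 2 counts over the early libraries and 10.6, 8.83 and 9.58 CPM in full (a ratio of 174 with a counting interval from 47.97 to 1439.5). Maml2, a coactivator of the nuclear complex, had 6 early counts and 34.1, 35.7 and 24.7 CPM in full (a ratio of 189 with a counting interval from 86.6 to 515). Jag2, Lfng and Maml2 transcripts were thus hardly held by early libraries. Of the target genes, Hes1 was called with a wide spread (76.5, 172 and 192 CPM in early, 198, 325 and 348 in full; edgeR log2 fold change 0.99, SE 0.36, adjusted p 0.0233) and was not called without early replicate 1 (edgeR adjusted p 0.0826), full replicate 2 (0.0633) or full replicate 3 (0.075). Jag1 and Hes1 are named here after their values were seen.

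Genes used as YAP targets were higher in 14 of 17 cases and lower in 1 (median 1.69). Ccn2, the matricellular growth factor also known as CTGF, was at 6.09, 11.2 and 8.58 CPM in early and at 828, 749 and 860.2 CPM in full libraries (edgeR log2 fold change 6.56, SE 0.23, adjusted p 3.19e-11). Ankrd1, an ankyrin repeat protein, had 1.19, 3.82 and 2.19 CPM in early and 148, 417 and 465 CPM in full libraries, replicate 1 being the lowest of the latter (edgeR log2 fold change 7.18, SE 0.58, adjusted p 8.40e-08). Even the lowest full library of Ankrd1 lay above all early ones. Fjx1 had 3 counts over the early libraries and 45.2, 43.8 and 35.4 CPM in full (a ratio of 498 with a counting interval from 170.1 to 2414). Areg, the EGF receptor ligand amphiregulin, went the other way, from 4.11, 5.64 and 2.99 CPM in early to 4 counts over the full libraries (a ratio of 72.1 with a counting interval from 27.6 to 268, early over full). Birc5 was not called (5.21 ± 1.44 against 6.02 ± 0.668 CPM; higher with total counts, log2 fold change 1.07), nor was Nuak2, which passed without early replicate 2 (edgeR adjusted p 0.0486) or 3 (0.0368), without the filter on low counts (0.00145) and with total counts (1.29e-04).

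Promoters of 4 genes higher in full are shown because they stand for the ductal, ciliary and YAP-target groups and for the genes without an early count. They come from the same RefSeq table (GRCm38.p6) and are written 5′ to 3′ on the gene's strand. Capitals mark GTTAATNA (HNF1) in Pkhd1 (minus strand, chr1:20618058-20618177), GGAATG (TEAD, the DNA-binding partner of YAP) in Ankrd1 (minus strand, chr19:36119955-36120074), AACNNGTT (GRHL) and GGAATG in Muc1 (plus strand, chr3:89228856-89228955), and TGANTCA (AP-1) in Mmp7 (plus strand, chr9:7691970-7692089). No 2 matches within a stretch overlap.
Pkhd1: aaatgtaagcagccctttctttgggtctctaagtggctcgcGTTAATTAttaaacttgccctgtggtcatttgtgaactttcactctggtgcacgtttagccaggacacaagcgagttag
Ankrd1: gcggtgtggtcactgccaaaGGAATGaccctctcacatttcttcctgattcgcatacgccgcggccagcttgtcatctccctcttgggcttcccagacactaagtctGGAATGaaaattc
Muc1: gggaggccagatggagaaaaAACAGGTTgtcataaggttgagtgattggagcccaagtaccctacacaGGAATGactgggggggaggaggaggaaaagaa
Mmp7: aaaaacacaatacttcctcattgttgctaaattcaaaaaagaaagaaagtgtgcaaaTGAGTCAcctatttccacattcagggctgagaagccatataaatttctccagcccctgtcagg
The match begins 79 bases before the start in Pkhd1 and 63 bases before it in Mmp7, for which the table holds 2 promoters and the first is shown. In Ankrd1 the letters occur 210 and 123 bases before the start. In Muc1 the GRHL letters begin 180 and the TEAD letters 132 bases before it. Of all promoters in the table, 2.54% held the HNF1 letters, 14.7% the TEAD letters, 4.20% the GRHL letters and 7.81% the AP-1 letters on either strand. These promoters were picked after the values and the matches were seen.

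TGF-beta and BMP genes were higher in 17 of 21 cases and lower in 3 (median 1.14). The ligand Tgfb3 had 0.0791, 0.546 and 0.809 CPM in early and 52.6, 56.01 and 53.3 CPM in full libraries (edgeR log2 fold change 6.81, SE 0.32, adjusted p 3.56e-10; log2 fold change 7.48 without early replicate 3), and Tgfb2 rose from 19.3 ± 1.70 to 135 ± 21.04 CPM. Ltbp2, of the family of latent TGF-beta binding proteins, rose from 8.64 ± 3.06 to 272 ± 26.9 CPM (edgeR log2 fold change 4.99, SE 0.35, adjusted p 1.86e-08). The ligands and the binding protein thus rose. The receptor Tgfbr2 fell from 225, 169 and 216 to 102, 92.04 and 94.03 CPM (edgeR log2 fold change -1.08, SE 0.10, adjusted p 5.39e-07), a call lost with total counts (edgeR adjusted p 0.0674). Inhbe, an activin subunit of hepatocytes, fell from 74.7 ± 11.6 to 3.68 ± 0.393 CPM.

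Wnt pathway genes were split, with 11 higher, 6 lower and 5 not called of 22 (median 0.52) on the TMM scale. With total counts 17 were higher and 2 lower (median 1.39). Among the ligands, Wnt7a rose from 0.316, 0.364 and 0.324 CPM to 28.8, 32.1 and 30.3 CPM (edgeR log2 fold change 6.48, SE 0.22, adjusted p 2.64e-11). Wnt7b went from 2 counts over the early libraries to 35.1, 44.1 and 26.9 CPM (a ratio of 635 with a counting interval from 176 to 5244), and Wnt10a from 1 count to 29.995, 50.7 and 33.1 CPM (a ratio of 1359.9 with a counting interval from 244 to 53733). Axin2, Tbx3 and Lgr5, known as targets of beta-catenin in hepatocytes around the central vein, fell. Axin2, a feedback inhibitor, went from 13.7 ± 3.26 to 5.77 ± 0.410 CPM (edgeR log2 fold change -1.24, SE 0.28, adjusted p 0.00135; not called with total counts, edgeR adjusted p 0.235), Tbx3 from 43.4 ± 6.40 to 3.01 ± 2.03 CPM, and Lgr5, the R-spondin receptor, from 10.4, 2.91 and 2.59 to 0.425, 0.268 and 0.131 CPM, with early replicate 1 above the other 2. The log2 fold change of Lgr5 was -4.23, and -3.29 without that library.

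Of 26 growth factor genes, 10 were higher and 12 lower, beside 39.1% and 32.1% of all genes tested. With total counts 14 of the growth factor genes were higher and 7 lower. Their median was -0.23, and 0.64 with total counts. Erbb2, the coreceptor of the EGF receptor family, was at 0.316, 0.637 and 0.890 CPM in early and at 65.7, 75.9 and 61.5 CPM in full libraries (edgeR log2 fold change 6.77, SE 0.21, adjusted p 1.65e-11). Igf1r, the IGF1 receptor, which adult hepatocytes scarcely make, had 0.316, 0.818 and 0.567 against 40.7, 56.99 and 33.1 CPM (edgeR log2 fold change 6.27, SE 0.42, adjusted p 1.13e-08). Kit, the stem cell factor receptor, rose from 0.566 ± 0.429 to 10.3 ± 1.46 CPM. These 3 receptors were under 1 CPM in each early library. The prolactin receptor Prlr fell from 66.8, 102 and 88.8 to 0.681, 1.56 and 2.76 CPM (edgeR log2 fold change -5.68, SE 0.36, adjusted p 6.34e-09), and Il6ra, the interleukin 6 receptor of the acute phase response, from 79.2 ± 22.4 to 3.92 ± 0.325 CPM.

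Of 23 chemokine and cytokine genes, 14 were higher and 5 lower. Their median was 2.09 or 1.41 with genes that had no early count at their lower bound. Cxcl5, a neutrophil attractant, was at 0.554, 0 and 0.0809 CPM in early and 83.3, 59.5 and 44.2 CPM in full libraries (edgeR log2 fold change 8.09, SE 0.60, adjusted p 3.58e-08; log2 fold change 10.30 without early replicate 1, which depends on the prior count since the other 2 had 3 counts or fewer). Tnf had 2 counts over the early libraries and 7.74, 13.3 and 13.995 CPM in full (a ratio of 209 with a counting interval from 57.7 to 1731). Both were under 1 CPM in every early library. Cxcl12 and Cxcl14 fell, Cxcl12 from 277 ± 36.5 to 69.96 ± 6.23 CPM (edgeR log2 fold change -1.99, SE 0.15, adjusted p 4.45e-08). Cxcl1 was not called (109, 87.03 and 84.2 against 62.4, 97.4 and 152 CPM; higher with total counts, log2 fold change 1.02). Of 16 genes of antigen presentation, 6 were higher and 3 lower (1 without full replicate 1) on the TMM scale, where 39.1% and 32.1% of all genes were, and 14 were higher and 1 lower with total counts. The class II invariant chain Cd74 rose most (9.49, 24.1 and 11.7 against 124, 137 and 109 CPM; edgeR log2 fold change 3.04, SE 0.27, adjusted p 2.44e-07). The class I heavy chains H2-K1 and H2-D1 were not called (both higher with total counts, 0.72 and 0.95 on the log2 scale), and B2m, their light chain, fell from 2290.2 ± 238 to 1034 ± 15.04 CPM (edgeR log2 fold change -1.15, SE 0.10, adjusted p 2.19e-07). The class I genes are close copies of one another and their single values are uncertain.

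Cell cycle genes were higher in 22 of 28 cases and lower in 0 (median 1.39). Ccnd2, a D-type cyclin that opens the G1 phase, had 0.712, 1.36 and 1.78 CPM in early and 134, 159 and 149 CPM in full libraries (edgeR log2 fold change 6.84, SE 0.33, adjusted p 4.85e-10). Cenpf, a kinetochore protein, had 1.90, 1.18 and 4.94 against 20.8, 26.6 and 35.6 CPM (edgeR log2 fold change 3.35, SE 0.47, adjusted p 2.27e-05), with early replicate 3 the highest early library and a log2 fold change of 4.15 without it. Rrm2, the nucleotide reductase subunit of S phase, was not called, with 12.2, 17.4 and 56.01 CPM in early and 20.5, 18.02 and 21.6 in full libraries, and early replicate 3 lay above all full libraries. Its log2 fold change was -0.51, 0.45 without that library (edgeR adjusted p 0.167) and 0.34 with total counts (edgeR adjusted p 0.471). Among p53 targets and inhibitors of the cycle, 12 of 21 were higher and 3 lower (19 and 2 with total counts). Pmaip1, the death effector NOXA, rose from 1.03 ± 0.690 to 22.1 ± 2.42 CPM (edgeR log2 fold change 4.38, SE 0.33, adjusted p 3.37e-08; log2 fold change 5.001 without early replicate 1) and Gdf15, a stress hormone, fell from 199 ± 38.9 to 23.2 ± 11.1 CPM (edgeR log2 fold change -3.10, SE 0.43, adjusted p 1.73e-05). Cdkn1a, the p21 inhibitor, was not called (39.4, 62.6 and 19.7 against 70.9, 56.8 and 63.8 CPM; edgeR log2 fold change 0.66, SE 0.29, adjusted p 0.0557). It was called higher without early replicate 2 (log2 fold change 1.10, edgeR adjusted p 0.00218), without the filter on low counts (edgeR adjusted p 9.19e-05), with total counts (edgeR adjusted p 2.54e-04) and by DESeq2 (adjusted p 0.0458).

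Chromatin regulators were higher in 24 of 29 cases, mostly by small amounts (median 0.72), and lower in 3 (log2 fold changes from -0.43 to -0.30), or 1 without full replicate 2. With total counts 29 were higher and 0 lower. Tet1, which oxidises methylated cytosine, had no early count and 9.999, 14.4 and 12.2 CPM in full libraries, at least 44.8-fold higher. Hdac7, a class IIa deacetylase, rose from 14.4 ± 6.31 to 191 ± 10.8 CPM (edgeR log2 fold change 3.74, SE 0.25, adjusted p 1.05e-08), and Hmga2, a fetal DNA-bending protein, from 0.105 ± 0.183 to 6.17 ± 1.18 CPM. All 4 early counts of Hmga2 came from replicate 1, so that the size of its rise (log2 fold change 5.72) rests on that library.

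Endoplasmic reticulum stress genes were lower in 18 of 18 cases (median -1.49). With total counts 13 were lower and 1 higher (median -0.63). Herpud1, a component of protein degradation at this membrane, went from 616 ± 160.3 to 138 ± 11.2 CPM (edgeR log2 fold change -2.15, SE 0.17, adjusted p 7.71e-08), and Sdf2l1, a chaperone partner, from 41.8, 44.5 and 44.9998 CPM to 6.34, 7.85 and 7.83 CPM. NRF2 targets, which answer oxidative stress, were lower in 17 of 21 cases and higher in 2 (median -2.47). Gstm3 was at 2303, 2609 and 2384 CPM in early and 25.02, 26.7 and 36.3 CPM in full libraries (edgeR log2 fold change -6.37, SE 0.25, adjusted p 8.64e-11). Nfe2l2, the gene for NRF2 itself, was higher in full (152 ± 12.9 to 227 ± 6.72 CPM; edgeR log2 fold change 0.58, SE 0.100, adjusted p 1.33e-04), as was G6pdx, the first enzyme of the pentose phosphate pathway (13.5 ± 4.13 to 44.5 ± 6.57 CPM; edgeR log2 fold change 1.71, SE 0.19, adjusted p 2.66e-06). Most targets thus fell while the regulator rose slightly.

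DDC blocks heme synthesis at ferrochelatase, and hepatocytes then raise Alas1, the first enzyme of the pathway. Of 16 heme genes, 14 were lower in full and 1 higher (median -1.36), or 8 and 3 with total counts. Alas1 had 657, 1101 and 2066 CPM in early and 33.3, 33.3 and 53.4 CPM in full libraries (edgeR log2 fold change -4.99, SE 0.50, adjusted p 7.50e-07), so that the early libraries differed among themselves more than 3-fold and still lay above all full ones. Flvcr1, a heme exporter, rose from 5.05 ± 0.904 to 19.02 ± 1.41 CPM (edgeR log2 fold change 1.91, SE 0.15, adjusted p 4.98e-08). Sterol and fatty acid synthesis was lower in 23 of 24 genes (median -2.70). Scd1, the stearoyl-CoA desaturase, had 2922, 4404 and 7195 CPM in early and 35.7, 60.7 and 136 CPM in full libraries (edgeR log2 fold change -5.97, SE 0.71, adjusted p 4.13e-06; log2 fold change -6.65 without full replicate 3). Srebf2, the regulator of these sterol genes, was not called (206, 212 and 235 CPM in early, 206, 201 and 213 in full), and was higher with total counts (log2 fold change 0.79).

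All 26 nuclear genes of the respiratory chain were lower (median -1.50), led by Cyc1, which encodes cytochrome c1 (275 ± 31.7 to 68.9 ± 8.17 CPM; edgeR log2 fold change -1.996, SE 0.11, adjusted p 1.50e-09). All 13 mitochondrial genes were lower too (median -2.63). mt-Co1, a core subunit of complex IV, had 37107, 70639 and 32315 CPM in early, replicate 2 being the highest, and 8374, 8965 and 9217 CPM in full libraries (edgeR log2 fold change -2.40, SE 0.25, adjusted p 1.33e-06). Without early replicate 2 the median of the mitochondrial list was -2.22. Cytosolic ribosomal protein genes were called lower in 24 of 26 cases at a small median of -0.55, which turned to 0.32 with total counts, so that their direction depends on the scale.

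Of 20 common isoforms of glycolysis, 8 were higher and 9 lower, beside 39.1% and 32.1% of all genes tested. The median of these isoforms changed sign with the scale (-0.35 against 0.51 with total counts). Hk1, a hexokinase of high glucose affinity, had 0.0791, 0.637 and 0.162 CPM in early and 38.5, 42.1 and 33.2 CPM in full libraries (edgeR log2 fold change 7.05, SE 0.39, adjusted p 1.68e-09; log2 fold change 8.21 without early replicate 2, which depends on the prior count since the other 2 had 3 counts or fewer). Ldhb rose from 0.605 ± 0.134 to 28.4 ± 1.68 CPM while Ldha, the other lactate dehydrogenase subunit, fell from 809 ± 128 to 172 ± 19.6 CPM (edgeR log2 fold change -2.23, SE 0.12, adjusted p 1.53e-09). The 2 lactate dehydrogenase subunits thus differed in direction. Gapdh, often used as a reference gene, fell from 2747, 2676 and 2868 to 716, 649 and 661 CPM (edgeR log2 fold change -2.03, SE 0.094, adjusted p 3.59e-10).

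Beyond the lists, genes were grouped by the letters of their symbols, which gave 93 families of at least 15 tested members. The lowest medians were those of Ugt, the glucuronidating enzymes (14 of 17 lower, median -5.61), and Cyp, the cytochromes P450 (57 of 71 lower and 9 higher, median -5.26, or -4.88 with members that had no count in a group at their bound, 2 for early and 1 for full). Mitochondrial ribosomal proteins of the large subunit (Mrpl) were lower in 47 of 48 cases (median -1.01, and -0.14 with total counts). At the other end stood Sema, the semaphorins that guide axons and vessels (11 of 17 higher and 4 lower, median 3.38), Cfap, proteins of motile and primary cilia (18 of 26 higher and 2 lower, median 1.96, or 1.49 with 3 members without an early count at their bound and 1 more, at or under 3 counts in each library, left out), and Kif, the kinesins (29 of 36 higher and 3 lower, median 1.75). The Cfap median was 0.75 among members with a mean of at least 50 counts. Zinc finger genes (Zfp), the largest of these families named, were higher in 229 of 355 cases and lower in 26, with a median of 0.68. These families were picked by their medians after the values were seen and are a description only.

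Pairs of a hepatocyte form and another form of the same kind of gene were compared within libraries, where the ratio of counts needs no scaling between libraries. Of 30 pairs, the ratio moved toward the other form without overlap in 28 and toward the hepatocyte form in 0, beside 74.4% of single genes without overlap. For 1 pair the smallest p of an exact permutation test is 0.1. In 17 pairs the hepatocyte form was called lower and the other form higher. The log2 ratio of Gja1 (connexin 43) to Gjb1 (connexin 32), the main hepatocyte gap junction protein, went from -11.59 ± 2.55 to -1.10 ± 0.38 (SD, n = 3). That of Ceacam20 to Ceacam1 went from -10.50 ± 0.95 to 1.20 ± 0.55. Gja1 and Ceacam20 had few or no early counts, so that these shifts depend on the 0.5 added to each count (10.48 and 11.71, but 8.96 and 9.26 with 5 added). The log2 ratio of the pyruvate kinase genes Pkm to Pklr went from -6.79 ± 0.17 to -0.72 ± 0.073. Mat2a was not called on the TMM scale while Mat1a, the methionine adenosyltransferase of adult liver, fell, so that their ratio shifted by 5.65. The exceptions were Onecut2 to Onecut1, where both factors rose and the ratio went from 3.11 ± 0.78 to 2.39 ± 0.18, and Aldh1a3 to Aldh1a1, where Aldh1a3 lay at 0.216 CPM in early and 0.146 CPM in full and was removed by the filter on low counts.

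**Figure D5:**
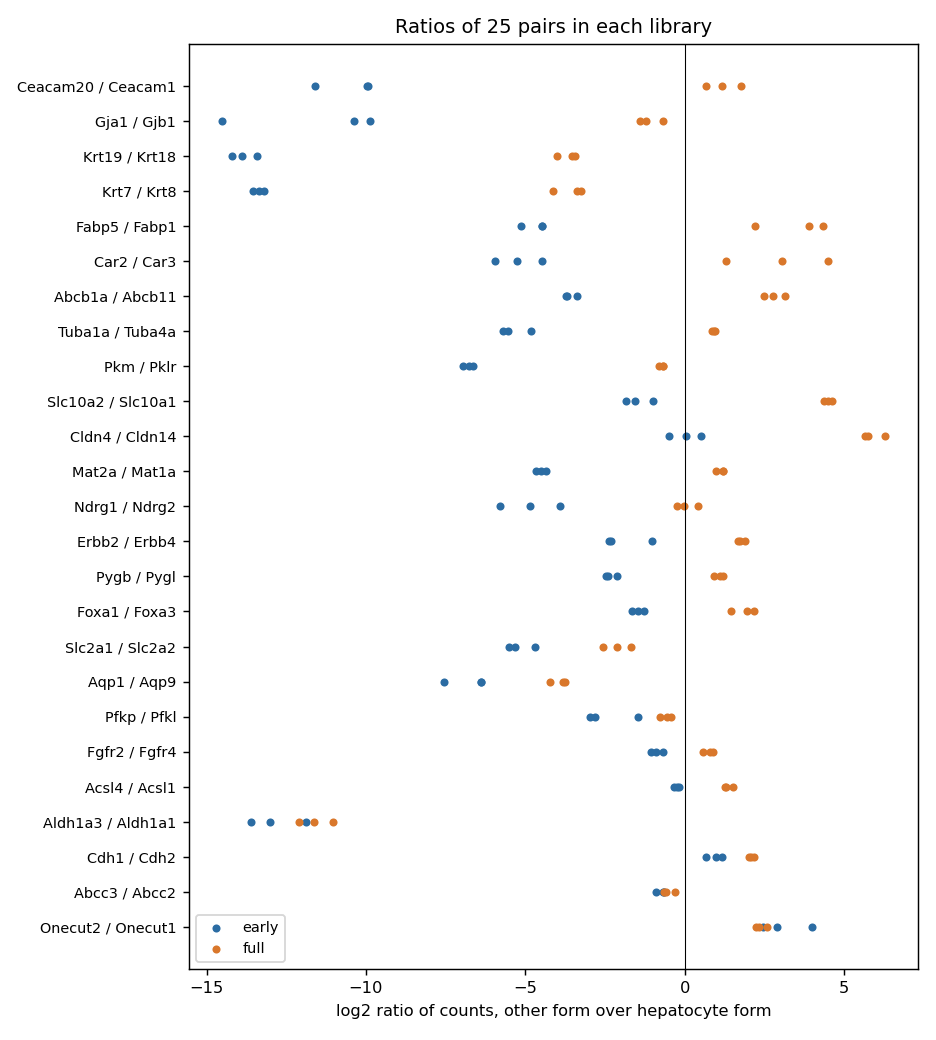
Log2 ratio of the counts of the other form to those of the hepatocyte form (0.5 added to each count) in each early (blue) and full (orange) library, for 25 of the 30 pairs, ordered by the shift. Ratios are not corrected for gene length, so that only the shift within a pair can be read. The full libraries lie to the right of the early ones without overlap in 23 of these 25 pairs.

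Some genes were steady. For 1955 genes the 95% interval of the log2 fold change lay between -0.5 and 0.5. Fn1, H2-K1, Actb and Hsp90ab1 were among the 5 most abundant of them. Fn1, which encodes fibronectin, had 3163, 3269 and 3625 CPM in early and 2675, 2808 and 3084 CPM in full libraries (interval -0.49 to 0.032), and Hsp90ab1, a cytosolic chaperone, 1672, 1669 and 1685 against 1576, 1510.4 and 1512 CPM (interval -0.31 to 0.057). Being steady holds on the TMM scale, and each of these 4 was higher in full with total counts. DESeq2 called Fn1 and Hsp90ab1 lower by small amounts (adjusted p 0.0473 and 0.00301).

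Markers of other cell types that a sort could carry along were examined as 8 lists. Of the stellate cell and fibroblast list, 8 of 11 tested members were lower in full (5 without early replicate 2, 4 with total counts) and 2 higher. The summed level went from 147 to 380.4 CPM in early to 2997 to 3463 CPM in full libraries, and Rgs5 carried the rise. The 8 members called lower include Col3a1 (21.99, 80.3 and 81.02 CPM against 10.98, 7.22 and 16.4; edgeR log2 fold change -2.40, SE 0.58, adjusted p 0.0021), the other member called higher was Ngfr, and the defining markers Lrat, Pdgfrb and Des had group means under 5 CPM. Of 11 macrophage genes, 1 was higher, Csf1r (4.11, 3.91 and 3.80 against 60.97, 69.03 and 73.4 CPM; edgeR log2 fold change 4.10, SE 0.11, adjusted p 1.20e-11), and 1 lower, Cd68 (13.96 ± 2.08 to 1.62 ± 0.526 CPM), while Clec4f, Vsig4, Marco and the C1q genes were at group means under 2 CPM in both groups. Clec4f, Vsig4, Marco and the C1q genes were thus low in both groups. Lyz2 and Cd5l, the members not called with the highest mean CPM, are not among these markers. The summed level of the macrophage list went from 26.3 to 29.9 CPM in early to 67.4 to 99.7 CPM in full libraries. None of the neutrophil or the T and NK cell genes passed the filter on low counts. Igkc and Jchain, transcripts of plasma cells, rose. Of the antigen receptor genes, 7 of 11 V segments and 4 of 5 C regions, Igkc among the latter, were higher. None of them was lower, and 39.1% of all genes tested were higher. Igkc went from 0.791, 1.0004 and 0.162 to 11.2, 4.28 and 17.1 CPM (edgeR log2 fold change 4.07, SE 0.71, adjusted p 1.46e-04). Endothelial genes were lower in 4 of 10 cases (1 without early replicate 2), Stab2 of the sinusoid from 11.9 ± 0.949 to 1.40 ± 0.732 CPM, and higher in 1, Egfl7 (2.53, 4.55 and 5.34 against 5.49, 7.63 and 7.22 CPM; edgeR log2 fold change 0.71, SE 0.30, adjusted p 0.0493; not called with the 6 libraries alone, edgeR adjusted p 0.0642). With total counts 2 endothelial genes were higher and 1 lower. Mesothelial genes were higher in 3 of 6 cases, Msln from 1.61 ± 0.846 to 21.4 ± 6.07 CPM (edgeR log2 fold change 3.75, SE 0.29, adjusted p 4.51e-08), and lower in 2, Lrrn4 from 1.74, 2.91 and 1.13 to 0.170, 0 and 0.262 CPM and Krt5 from 2.45, 1.46 and 1.38 to 0.128, 0.0446 and 0.131 CPM. Alas2, the erythroid form of the heme enzyme, fell from 18.5, 21.5 and 32.9 to 0.213, 0.714 and 0.787 CPM, Rhag, an erythroid ammonia channel gene, was called higher from no early count to 0.128, 0.312 and 0.481 CPM, and the hemoglobin genes were at or near 0 in all 6 libraries. The part of other cells in the results above was not tested.

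Immediate early and heat shock genes, which cell dissociation can induce, were higher in 8 of 22 cases, lower in 3 and not called in 11. With total counts 14 were higher and 0 lower. Hspa1a rose from 3.77 ± 1.84 to 36.2 ± 4.61 CPM (edgeR log2 fold change 3.26, SE 0.30, adjusted p 2.81e-07). The count of lower genes ranged from 1 to 4 when 1 library was left out (1 without early replicate 2). Jun was not called but passed without early replicate 3 (log2 fold change 0.72, edgeR adjusted p 0.0416), without the filter on low counts (0.00223) and with total counts (4.63e-04). Fos, an immediate early gene, was not called, at 288, 489 and 648 CPM in early and 494, 721 and 819 CPM in full libraries. The Fos ranges of the groups overlapped, and Fos was called higher without the filter on low counts (edgeR adjusted p 0.00433) and with total counts (0.00223).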

How the data were processed

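Total RNA of the sorted cells was sequenced. The values used are read counts per gene from the table the authors deposited. The submitters' processing notes name STAR 2.7.10b, featureCounts 2.0.1, DESeq2 and GRCm39. Strandedness, annotation and the treatment of reads with several positions are not given in the sources used here, so overlapping and near-identical genes are uncertain. A second deposited table holds the same counts divided by size factors (signal) and was not used for tests.

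All 12 libraries of the 4 groups were fitted with edgeR 4.0.16 (quasi-likelihood, TMM factors, filterByExpr by group), which kept 16210 of 53599 genes. Full was contrasted with early and Benjamini-Hochberg adjusted over all genes tested. Standard errors were derived from the F statistic. R 4.3.3, limma 3.58.1, Python 3.11.15, pandas 2.3.3 and scipy 1.17.1 were used. The fit was also run on simulated data in which only a small part of the genes changed, so that run does not test the scale between the groups. Levels are CPM, counts scaled to 1000000 per TMM-adjusted library. A group with 0 counts was set to 3 counts in 1 library, and intervals and floors cover counting error only. Single values per library were compared by exact permutation, for which 3 against 3 gives at best a p of 0.1.

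Named genes were the 12 largest and 12 smallest log2 fold changes among genes that were called, reached 10 CPM in the group where they were higher and did not overlap, the 5 largest gains and losses in CPM, the 3 largest called changes per list and direction with up to 2 members not called, the genes of the pairs, the 5 most abundant steady genes and the sort markers. Predicted symbols were counted but not named, and results for some other genes that the rule names are not reported here. Acadl, Jag1, Hes1 and the markers Hnf4a, Sox9, Lrat, Pdgfrb, Clec4f, Vsig4 and Marco were named after their values were seen. Members, pairs and the 34 function and 8 cell type lists were chosen with earlier results of these data known. Symbols were matched to RefSeq promoters (GRCm38.p6, 250 bases before to 50 after the start) for 71.4% of genes tested, under the 80% needed, so a comparison of motifs between gene sets is void.

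Alternatives were other scaling factors, DESeq2 1.42.0, 2 other filters on low counts, the 6 libraries alone, a replicate block, a test against a 2-fold change, leaving out each library, and, for single values, other thresholds or totals.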

Additional observations from a re-analysis of the deposited data

How the results depend on the processing

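The number of genes called (11541) stayed within 1.5 times under all alternatives run except the test against a 2-fold change, which called 5671 genes, 3342 higher and 2329 lower. With total counts 13161 genes were called, 10766 higher and 2395 lower, since TMM factors differ between the groups. Leaving out 1 library gave 10963 to 11341 calls, DESeq2 11611, and the 6 libraries alone 10875 of 15110 genes. With the replicate block 11848 genes were called. The replicate numbers could not be shown to pair the libraries: deviations from the group means correlated at 0.21, 0.10 and 0.14 between same-numbered full and early libraries, the second being under 0.1, although each full library correlated best with its own number. The block called 5 of the 189 genes named that were not called without it (Jun, Fos, Lcn2, Nuak2 and Cdkn1a) and lost none, and the same 5 were called without the filter on low counts.

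With total counts the sign turned for 16 named genes: for Acadl (0.13), Id1 (0.099), Krt8 (0.052), Krt18 (0.31), Nid1 (0.12), Actb (0.84), Dll1 (0.68), Fn1 (0.63), H2-K1 (0.72), Hsp90ab1 (0.74), Mat2a (0.71), Slc10a2 (0.57) and Srebf2 (0.79), for Lcn2 (0.15), Rrm2 (0.34) and Marco (0.83), which were called on neither scale, and for the medians of growth factor genes (0.64), common glycolysis isoforms (0.51) and cytosolic ribosomal proteins (0.32). No named gene reversed under any other alternative while called. Calls lost among the 165 named genes called numbered 16 in the test against a 2-fold change, 10 with total counts (6 with the same sign, and Acadl, Id1, Krt8 and Nid1), and 4 when 1 library was left out (Hes1, Lrat, Pdgfrb and Egfl7). Krt18 was called in the opposite direction with total counts, which also called 18 genes higher that were not called on the TMM scale, the 8 from Actb to Srebf2 above and Birc5, Cdkn1a, Cldn3, Cxcl1, Fos, H2-D1, Jun, Nr5a2, Nuak2 and Prox1. Egfl7 also lost its call with the 6 libraries alone and with median-of-ratios factors. Shares of counts, genes detected and the pairs kept their direction in all settings tried; the number of pairs without overlap was 28 to 29 with 1 library left out. Depth limits genes near 1 count per library, where 1 library can move a fold several-fold.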
